A study of Mus musculus with 2 samples.

Results

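Transcripts of 9 genes of insulin and insulin-like growth factor (IGF) signalling were followed in the somatic cells of foetal mouse gonads: the ligand gene *Igf1*, the receptor genes *Igf1r* and *Insr*, the receptor substrate genes *Irs1* and *Irs2*, and the binding protein genes *Igfbp2*, *Igfbp3*, *Igfbp4* and *Igfbp5*. The genes were chosen by name, with symbols matched to the Ensembl identifiers of the count table, and all 9 of the 42422 identifiers were found and passed the filter on low counts that left 15125 genes for testing. The gonads came from E12.5 wild-type embryos carrying an Oct4-eGFP transgene, which marks germ cells, from a cross of ASMU Swiss mice with the transgene on a 129svJT2 background. XX and XY gonads were taken before culture (0 h) or cultured with their mesonephros for 24 or 72 h in the vehicle DMSO, and XY gonads were also cultured with 500 nM BGJ398, an FGF receptor inhibitor (FGFRi), or 500 nM PD0325901, an inhibitor of the kinase MEK (MEKi). After removal of the mesonephros, GFP-negative cells were sorted from several pooled gonads per sample, so that each library averages embryos and all somatic cell types. The 10 groups of 4 libraries were XX and XY at 0 h, the DMSO cultures of XX and of XY gonads at 24 and 72 h, and the MEKi and FGFRi cultures of XY gonads at the same 2 times.

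IGF1 and IGF2 signal through the IGF1 receptor, and insulin and IGF2 through the insulin receptor. Both receptors are tyrosine kinases that phosphorylate the adaptor proteins IRS1 and IRS2, which pass the signal to PI3 kinase and AKT, while a second branch runs through RAS and MEK. IGF-binding proteins hold IGFs outside the cell, and proteases such as PAPP-A release them by cutting the binding proteins. In the mouse foetal gonad, loss of the insulin and IGF1 receptors together is known to disturb testis formation.

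In GRCm39 coordinates, *Igf1* lies at chr10:87693642-87772904, *Igf1r* at chr7:67601518-67883416 and *Insr* at chr8:3172061-3329647. *Irs1* lies at chr1:82210822-82269338 and *Irs2* at chr8:11034681-11059499. *Igfbp3* occupies chr11:7156086-7164179 and *Igfbp4* chr11:98932064-98945218. *Igfbp2*, at chr1:72863606-72891634 on the plus strand, and *Igfbp5*, at chr1:72897091-72914043 on the minus strand, are neighbours whose ends face each other across 5456 bases. The counts cover whole genes from 3′-end tags, so isoforms such as those of *Igf1* were not separated. Antisense genes overlap 6 members, among them *Igf1* and *Irs2*, and counting is stated to have used strand. *Igf1r* also shares a stretch with 1 gene model on its own strand.

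Short promoter stretches around motif matches are shown for *Irs1*, *Irs2*, *Igfbp3* and *Igf1*, each called in at least 1 comparison, and longer ones for the neighbours *Igfbp2* and *Igfbp5*. The sequences were taken from RefSeq promoters (GRCm38.p6 table, 9 entries for 8 of the 9 genes, none for *Insr*) and placed on GRCm39 by exact match, and they are written 5′ to 3′ on the strand of the gene. Capitals mark matches, on either strand, to 6 motifs searched, whose letters follow the sequences. In *Irs1* (chr1:82269254-82269283) and *Irs2* (chr8:11058952-11058981) an E-box stood next to, or in *Irs1* overlapped, a FOXO-type match, and gtcacgtgtt was the longest run that both 250-base promoters shared, with 10 bases. The ETS core of *Igfbp3* (chr11:7163964-7163993) began 62 bases before the start site, and the AP-1 match of *Igf1* (chr10:87696928-87696957) 37 bases before it. These RefSeq start sites lay downstream of the annotated gene start, by 178 bases in *Irs1*, 570 in *Irs2*, 256 in *Igfbp3* and 3331 in *Igf1*. The short stretches therefore lie inside the gene coordinates given above, while those of *Igfbp2* and *Igfbp5* end at the gene start.
Irs1: ggctccgtCACGTGTTTTGctcctctggag
Irs2: cgcagagtCACGTGtTGTTTTGctcttagt
Igfbp3: cctcgccgTTCCGGggcgtgtcctccgcca
Igf1: ctggaactTGAATCActattctggatagcc
Igfbp2: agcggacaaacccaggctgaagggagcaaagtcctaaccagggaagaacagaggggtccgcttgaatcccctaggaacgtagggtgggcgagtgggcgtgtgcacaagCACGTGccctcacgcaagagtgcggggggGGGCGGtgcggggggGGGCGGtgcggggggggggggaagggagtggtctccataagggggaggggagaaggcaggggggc
Igfbp5: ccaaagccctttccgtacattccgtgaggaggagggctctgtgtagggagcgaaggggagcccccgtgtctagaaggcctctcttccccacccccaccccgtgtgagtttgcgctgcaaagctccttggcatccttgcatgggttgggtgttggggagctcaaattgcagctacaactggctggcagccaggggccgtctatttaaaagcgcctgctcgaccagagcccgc

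The *Igfbp2* stretch (chr1:72863389-72863605) held an E-box and GC boxes, and the *Igfbp5* stretch (chr1:72914044-72914274) held none of these letters. The E-box was searched as CACGTG and stood in 6.02% of all 32851 mouse promoters of 250 bases in the table. The FOXO-type site, searched as CAAAACA, stood in 5.56% of these promoters. The ETS core, CCGGAA in these searches, was present in 12.0%. For the AP-1 site, written TGANTCA, the share was 6.75%. A TATA box in the form TATAAA was found in 12.4% and a GC box, with the letters GGGCGG, in 32.7% of the promoters. The FOXO-type match of *Irs1* shares 2 bases with its E-box, and no other motifs overlapped in the stretches shown. A match is a description of the letters and not evidence that a factor was bound.

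Libraries held 1380707 to 4836550 counts, with a median of 2248854. All 9 members had counts in all 40 libraries, and the smallest were 14 for *Irs1* and 23 for *Insr*. Levels are given as CPM, the counts scaled to the library size after TMM normalisation. They are not divided by transcript length, so they are compared between groups and not between genes. A gene was called where edgeR's quasi-likelihood test gave an FDR (Benjamini-Hochberg, all tested genes) below 0.05 and the change was at least 1.5-fold. The libraries came in 2 pools: all 0 h libraries, the 24 h DMSO libraries and the 24 h MEKi libraries were in 1 pool, and the 24 h FGFRi libraries and all 72 h libraries in the other. Levels at 24 and 72 h are therefore shown side by side, since time and pool cannot be told apart.

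The 6 Sertoli markers summed to 1497.8 to 1642.9 CPM in XY and 146 to 248 CPM in XX libraries at 0 h, and the 6 pre-granulosa markers to 56.5 to 66.7 CPM in XY and 1135.2 to 1416.2 CPM in XX. Of 10 MAPK output genes, 8 were called lower with MEKi at 24 h, 10 at 72 h, and 2 with FGFRi at 72 h. In bulk samples like these, fewer cells of a type and less RNA per cell cannot be told apart.

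**Figure D1:**
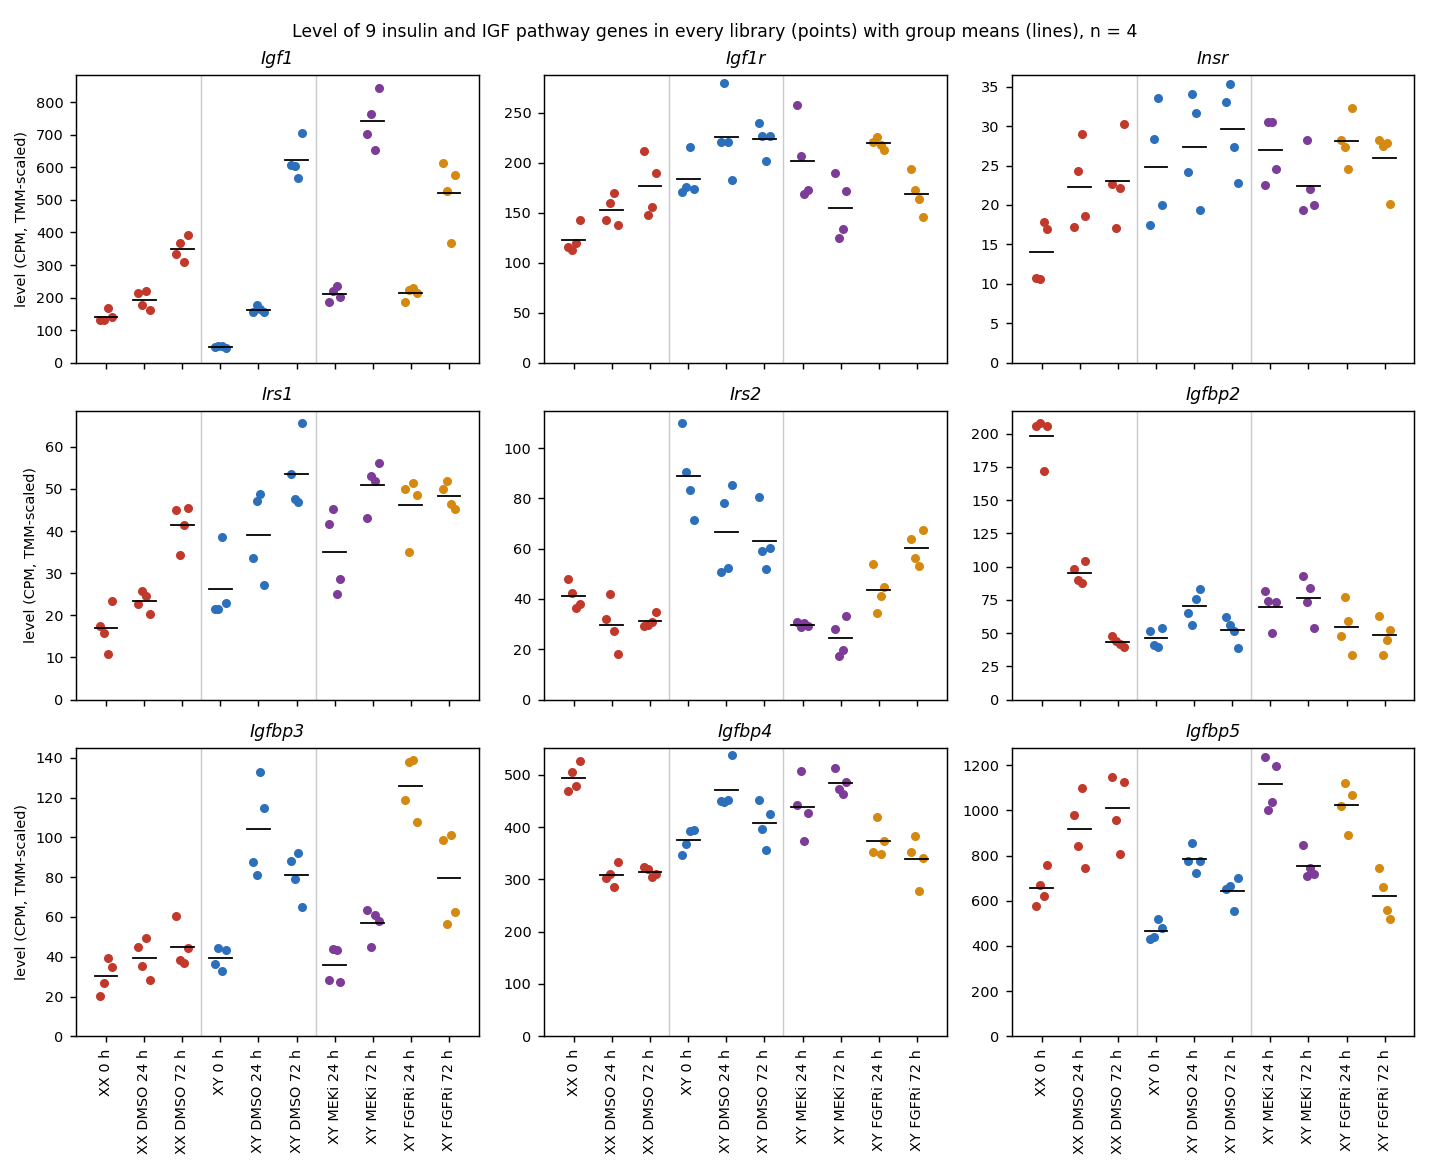
Levels of the 9 genes in CPM on TMM-scaled library sizes (vertical axes, each starting at 0) for the 10 groups, with 1 point per library, a line at the mean of 4 libraries and colours for XX, XY in or before DMSO, MEKi and FGFRi. *Igf1* stood at 49.3 CPM in XY at 0 h and 621 CPM in XY DMSO at 72 h. Mean *Irs2* levels were 24.6 to 29.8 CPM with MEKi, 29.8 to 31.1 CPM in XX DMSO and 41.2 CPM in XX at 0 h.

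*Igf1* varied most over the 10 groups. Its mean level ran from 49.3 CPM in XY at 0 h to 741 CPM in XY with MEKi at 72 h, a 15.0-fold range. *Igfbp2* spanned 4.60-fold, *Igfbp3* 4.14-fold, *Irs2* 3.61-fold and *Irs1* 3.17-fold, whereas *Insr*, *Igf1r*, *Igfbp4* and *Igfbp5* spanned 1.60- to 2.39-fold. With the groups of each gene put in order of their means, only 4 pairs of neighbours were separate, and the libraries of all other neighbouring groups overlapped. The separate pairs were XY 0 h below XX 0 h, and FGFRi 24 h below XX DMSO 72 h, for *Igf1*, XX DMSO 72 h below XX 0 h for *Irs2*, and XX DMSO 24 h below XX 0 h for *Igfbp2*.

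Whether XX and XY somatic cells differed in these genes was asked at each of 3 times. Before culture 4 of the 9 members were called, 2 higher and 2 lower in XX, where 17.3% of all genes were called, 8.01% higher and 9.32% lower. With DMSO at 24 h, 4 were called and all were lower in XX, against 19.6% of all genes, 9.24% higher and 10.3% lower. At 72 h, 4 were called, 1 higher and 3 lower, against 20.3% of all genes, 9.47% higher and 10.8% lower. *Irs2* was called at all 3 times, and the signs of the *Igf1* calls were opposite at 0 and 72 h.

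*Igf1*, which encodes the secreted growth factor, was higher in XX before culture. XX libraries at 0 h held 130, 130, 167 and 139 CPM, and XY libraries 49.8, 51.8, 51.2 and 44.3 CPM. The groups did not overlap, and *Igf1* was 2.86-fold higher in XX (log2 fold change 1.52, SE 0.14, edgeR FDR = 1.78e-13). With DMSO at 24 h, XX libraries held 215, 176, 220 and 161 CPM and XY libraries 156, 176, 164 and 156 CPM. These groups overlapped, and the log2 difference of 0.24 (SE 0.12) was not called (edgeR FDR = 0.135). By 72 h the order had turned, with 333, 368, 310 and 391 CPM in XX and 608, 604, 567 and 706 CPM in XY. *Igf1* was then 1.78-fold lower in XX (log2 −0.83, SE 0.11, edgeR FDR = 4.98e-08), again without overlap.

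The change of the XX–XY difference was itself tested. From 0 to 24 h the *Igf1* difference moved by −1.28 on the log2 scale (SE 0.18, edgeR FDR = 8.23e-07), and from 24 to 72 h by −1.07 (SE 0.16, edgeR FDR = 2.63e-05). Both sexes at a given time were in the same pool, so the second test compared differences made within pools. In the first test 4 members were called, *Igf1*, *Igfbp2*, *Igfbp3* and *Igfbp4*, against 6.89% of all genes, and in the second *Igf1* alone, against 2.14%.

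The receptor genes had lower values in XX at all 3 times. *Igf1r*, the IGF1 receptor gene, ranged from 113 to 143 CPM in XX and from 171 to 216 CPM in XY at 0 h, and from 138 to 170 and from 183 to 280 CPM at 24 h, without overlap at either time. Its log2 differences of −0.58 (SE 0.13, edgeR FDR = 5.86e-04) and −0.57 (SE 0.13, edgeR FDR = 3.64e-04) passed the FDR but fell just short of 1.5-fold. They passed the fold limit without any 1 of XX F5 or XY M2, M3 or M6 at 0 h (−0.60 to −0.67), and without XX F5, XX F6 or XY M5 at 24 h (−0.59 to −0.65), where total-count scaling (−0.61) and no filter (−0.59) also led to a call. At 72 h the groups overlapped and the difference was −0.35 (SE 0.13, edgeR FDR = 0.0361).

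*Insr* is the insulin receptor gene. Its XX libraries at 0 h held 10.7 to 17.8 CPM and its XY libraries 17.4 to 33.5 CPM, so that the groups met at 1 library on each side. It was called at 0 h (log2 −0.85, SE 0.23, edgeR FDR = 0.00425). At 24 h the difference was −0.33 with a 95% interval from −0.72 to 0.07, and at 72 h −0.37 with an interval from −0.79 to 0.05, and neither was called.

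The substrate gene *Irs2* was lower in XX at every time. Libraries held 47.8, 42.4, 36.4 and 38.1 CPM in XX and 110, 90.5, 83.2 and 71.3 CPM in XY at 0 h. At 24 h they held 31.9, 42.1, 27.1 and 18.2 CPM in XX and 50.6, 78.3, 52.5 and 85.5 CPM in XY, and at 72 h 29.1, 29.5, 30.7 and 35.0 CPM in XX and 80.6, 59.2, 51.9 and 60.4 CPM in XY. The sexes did not overlap at any time. *Irs2* was 2.14-fold lower in XX at 0 h (log2 −1.10, SE 0.18, edgeR FDR = 3.81e-06), 2.18-fold lower at 24 h (log2 −1.12, SE 0.18, edgeR FDR = 1.42e-06) and 2.04-fold lower at 72 h (log2 −1.03, SE 0.19, edgeR FDR = 2.16e-05). The change of this difference was −0.03 from 0 to 24 h, with a 95% interval from −0.54 to 0.48, and 0.09 from 24 to 72 h, with an interval from −0.44 to 0.62. Against the stricter null of a 1.5-fold change, glmTreat kept the 3 calls, and voom with quality weights and treat kept none (adjusted p of 0.0862, 0.22 and 0.152, log2 −1.05, −0.96 and −1.02).

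Its paralogue *Irs1* was called only at 24 h, when XX libraries held 20.2 to 25.7 CPM and XY libraries 27.2 to 48.7 CPM (log2 −0.77, SE 0.18, edgeR FDR = 9.48e-04). At 0 h the difference was −0.58 (SE 0.22, edgeR FDR = 0.0449), 1 XY library, M5, stood at 38.7 CPM above the other 3 at 21.5 to 23.0 CPM, and the gene reached the call without XX F5 (−0.79), without XY M2, M3 or M6 (−0.65 to −0.67), or with DESeq2 (−0.59). At 72 h the difference was −0.36 with a 95% interval from −0.72 to 0.00. The change of the *Irs1* difference was not called in either interval of time.

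Among the members that encode binding proteins, *Igfbp2* had the largest sex difference at 0 h. XX libraries at 0 h held 206, 208, 172 and 206 CPM and XY libraries 51.8, 41.0, 39.7 and 53.9 CPM. The groups were far apart, 4.25-fold higher in XX (log2 2.09, SE 0.17, edgeR FDR = 1.39e-14). At 24 h the XX libraries held 98.1, 89.6, 87.5 and 104 CPM and the XY libraries 64.9, 56.2, 75.7 and 83.2 CPM. The log2 difference was then 0.44 (SE 0.16, edgeR FDR = 0.0366), below 1.5-fold, and its change from 0 h was −1.65 (SE 0.24, edgeR FDR = 1.55e-06). At 72 h the groups overlapped at 39.2 to 47.5 CPM in XX and 39 to 62.0 CPM in XY.

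*Igfbp3*, whose product is the main IGF carrier in serum, was not called between the sexes at 0 h (log2 −0.40, SE 0.22, edgeR FDR = 0.201). At 24 h XX libraries held 44.8, 35.4, 49.3 and 28.1 CPM and XY libraries 87.4, 81.3, 133 and 115 CPM, a 2.67-fold lower level in XX (log2 −1.42, SE 0.18, edgeR FDR = 9.59e-09) with no overlap. The difference at 72 h was −0.86 (SE 0.19, edgeR FDR = 3.89e-04). The change from 0 to 24 h was −1.02 (SE 0.29, edgeR FDR = 0.0177), and it was not called without any 1 of XX 0 h F4 or F5, XX 24 h F9 or XY 24 h M4, where it was −0.87 to −0.92.

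The sex difference of *Igfbp4*, whose product is a substrate of PAPP-A, changed sign between 0 and 24 h. It stood at 469 to 526 CPM in XX and 346 to 394 CPM in XY at 0 h, and at 286 to 333 CPM in XX and 448 to 538 CPM in XY at 24 h, without overlap at either time. The log2 difference was 0.40 at 0 h (SE 0.10, edgeR FDR = 9.88e-04, below 1.5-fold) and −0.61 at 24 h (SE 0.09, edgeR FDR = 6.31e-07), and its change was −1.01 (SE 0.13, edgeR FDR = 2.54e-07). The call at 24 h fell under the fold limit without XX F6 (−0.58) or XY M5 (−0.54). At 72 h the difference was −0.37 (SE 0.10, edgeR FDR = 0.00193).

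*Igfbp5* had a log2 difference of 0.49 at 0 h (SE 0.12, edgeR FDR = 9.84e-04), short of the fold limit. It was called at 72 h, when XX libraries held 1147.1, 957, 805 and 1126.7 CPM and XY libraries 654, 667, 554 and 701 CPM (log2 0.65, SE 0.12, edgeR FDR = 1.19e-05). The 72 h groups did not overlap, but without XX F11 or XY M5 the value was 0.58 and fell under the fold limit. Its neighbour *Igfbp2* was not called at that time. Against a 1.5-fold null, glmTreat kept 3 member calls at 0 h (*Igf1*, *Irs2* and *Igfbp2*), 2 at 24 h (*Irs2* and *Igfbp3*) and 2 at 72 h (*Igf1* and *Irs2*), and voom with treat kept 2 at 0 h (*Igf1* and *Igfbp2*), 1 at 24 h (*Igfbp3*) and 0 at 72 h. Calls over all genes fell too, from 2622, 2961 and 3067 to 1388, 1582 and 1490 with glmTreat and 936, 1156 and 1087 with voom.

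Markers of other cells differed between the sexes at the same times. Of 10 endothelial markers, 6 were called lower in XX at 0 h, 9 at 24 h and 3 at 72 h. Their summed level was 143 to 222 CPM in XX and 236 to 294 CPM in XY at 0 h, 115 to 149 and 240 to 360 CPM at 24 h, and 94.0 to 122 and 127 to 200 CPM at 72 h. Of 5 interstitial progenitor markers, 3 were called lower in XX at 0 h, 4 at 24 h and 4 at 72 h, with sums of 637 to 785 CPM in XX and 1096.9 to 1308.5 CPM in XY at 0 h. The 6 erythroid genes were all called lower in XX at 24 h (median log2 −2.26), 2 at 0 h and 1 at 72 h. Of 6 pericyte and smooth muscle markers, 3 were called lower and 2 higher in XX at 0 h, and 4 lower and 1 higher at 24 and at 72 h. Of 4 foetal Leydig markers tested, 3 were called lower in XX at 0 h and 3 at 24 h, and 2 lower and 1 higher at 72 h. Of 5 germ cell genes tested, 3 were called lower in XX at 0 h, 2 higher at 24 h, and 1 higher and 2 lower at 72 h. Of 3 duct epithelium markers tested, 1 was called higher in XX at 0 h and 2 at 24 and at 72 h. The part of these cells in the differences of *Irs2* and *Igfbp3* was not tested. Of the 10 MAPK output genes, 5 were called lower and 1 higher in XX at 0 h, 4 lower at 24 h and 1 lower at 72 h.

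**Figure D2:**
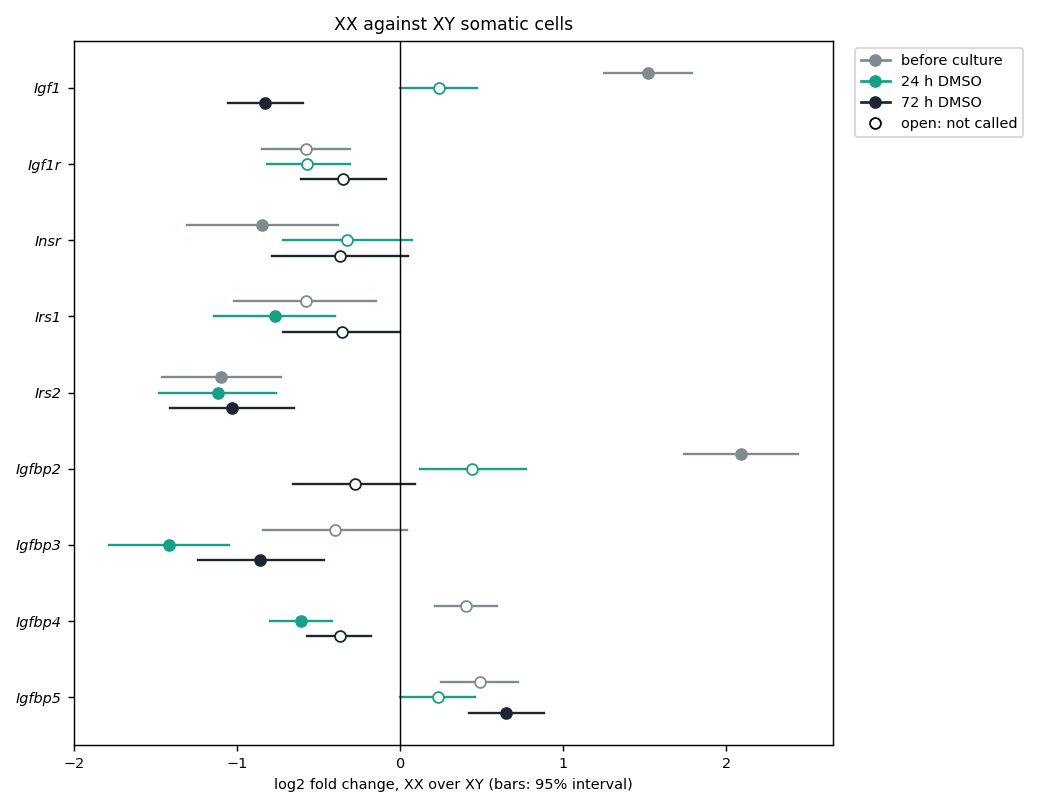
Log2 fold change of XX over XY (horizontal axis) for each gene before culture and after 24 and 72 h in DMSO, with 95% intervals from edgeR as bars and filled points for genes called. *Igf1* crossed from 1.52 to −0.83 while *Irs2* stayed between −1.03 and −1.12.

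The effect of the first 24 h of culture in DMSO was compared with uncultured gonads of the same sex, all in 1 pool. In XY, 4 members were called and all were higher after culture, against 14.4% of all genes, 8.9% higher and 5.5% lower. In XX, 3 were called, 1 higher and 2 lower, against 7.73% of all genes, 5.46% higher and 2.27% lower. Scaling by total counts alone moved every gene of the XY comparison by 0.13 on the log2 scale.

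In XY gonads *Igf1* rose 3.32-fold (log2 1.73, SE 0.13, edgeR FDR = 4.48e-15), *Igfbp3* 2.66-fold (log2 1.41, SE 0.19, edgeR FDR = 8.05e-08) and *Igfbp5* 1.67-fold (log2 0.74, SE 0.12, edgeR FDR = 2.04e-06). For these 3 genes the 0 and 24 h libraries did not overlap. *Irs1* was called with overlapping libraries (log2 0.60, SE 0.19, edgeR FDR = 0.0167), and the call was lost without any 1 of 0 h M2, M3 or M6 or 24 h M3 or M4 (0.47 to 0.53) and with DESeq2 (0.58). *Igfbp2* (log2 0.58, edgeR FDR = 0.0122) stood just below the fold limit and was called without 0 h M2 or M6 or 24 h M2 or M3 (0.61 to 0.67), under total-count scaling (0.71), without a filter (0.62) and with a filter of 1 CPM (0.61).

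In XX gonads 2 of the 4 binding protein genes fell. *Igfbp2* fell 2.10-fold (log2 −1.07, SE 0.16, edgeR FDR = 1.36e-06) and *Igfbp4* 1.60-fold (log2 −0.68, SE 0.10, edgeR FDR = 3.51e-07), both without overlap. *Igfbp5*, next to *Igfbp2* on the chromosome, had a log2 change of 0.48 (SE 0.12, edgeR FDR = 0.00271) and *Igf1* of 0.45 (SE 0.12, edgeR FDR = 0.00722), both under 1.5-fold. *Insr* was called higher (log2 0.68, SE 0.23, edgeR FDR = 0.0383), with overlapping libraries, and lost the call without any 1 of 0 h F2 or F3 or 24 h F5 or F6 (0.55 to 0.63) and in a fit of these groups alone (edgeR FDR = 0.0682). *Irs2* was not called, at −0.42 in XY (95% interval −0.76 to −0.07) and −0.44 in XX (−0.83 to −0.05), and it reached the call in XX without 24 h F5 (−0.68). Against a 1.5-fold null, *Igf1* and *Igfbp3* kept their XY calls with glmTreat and with voom and treat, *Igfbp2* kept its XX call with glmTreat alone, and the other calls were lost. Calls over all genes also fell, in XY from 2178 to 688 with glmTreat and 421 with voom, and in XX from 1169 to 356 and 214.

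Other cells of the samples changed over the same 24 h. The summed level of 6 erythroid genes went from 7667.7 to 9687.3 CPM in XY at 0 h to 1384.8 to 3748.2 CPM, and all 6 were called lower in each sex. The 6 pericyte and smooth muscle markers summed to 234 to 286 CPM in XY at 0 h and 625 to 740 CPM at 24 h, and to 170 to 252 and 362 to 422 CPM in XX. Of 4 foetal Leydig markers tested, 3 were called higher in XY, and 2 higher and 1 lower in XX. Of 7 macrophage markers, 2 were called lower in XY and 4 in XX, and of 5 germ cell genes 1 was called lower in XY and 4 higher in XX. Of 6 Sertoli markers, 3 were called lower in XY and 1 higher in XX. Of 6 pre-granulosa markers, 4 were called higher and 1 lower in XY, and 1 higher and 1 lower in XX. Of 5 interstitial progenitor markers, 2 were called higher in XY and none in XX. Of 10 endothelial markers, 1 was called higher and 1 lower in XY, and 3 lower in XX. The part of these cells in the changes of *Igf1*, *Igfbp3* and *Igfbp5* was not tested.

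By 72 h, in the other pool, *Igf1* stood at 567 to 706 CPM in XY and 310 to 391 CPM in XX, above all 24 h libraries of the same sex. *Irs1* stood at 46.9 to 65.7 CPM in XY and 34.3 to 45.4 CPM in XX, and *Igfbp2* in XX at 39.2 to 47.5 CPM, below all XX libraries at 24 h. These shifts carry the difference between pools as well as time.

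MEK inhibition was compared with DMSO in XY gonads within a pool at each time. At 24 h, 2 members were called and both were lower, *Irs2* and *Igfbp3*, against 3.27% of all genes, 1.29% higher and 1.98% lower. At 72 h, 1 was called, *Irs2*, which was lower, against 6.47% of all genes, 2.29% higher and 4.19% lower. With FGFRi at 72 h, none was called, against 1.8% of all genes, 0.866% higher and 0.939% lower. For FGFRi, 3 members had an unadjusted edgeR p below 0.05, *Igf1*, *Igf1r* and *Igfbp4*, and DESeq2, glmTreat and voom with quality weights also called 0 members. Over all genes, DESeq2 called 285 with FGFRi at 72 h, glmTreat 5 and voom with treat 0. With so few genes called by glmTreat and voom, their 0 members say little about these genes.

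*Irs2* levels with MEKi overlapped those of XX gonads cultured in DMSO. At 24 h the MEKi libraries held 30.8, 28.8, 30.5 and 29.2 CPM, below all 4 DMSO libraries at 50.6 to 85.5 CPM. At 72 h the MEKi libraries held 28, 17.2, 19.8 and 33.4 CPM, again below all DMSO libraries at 51.9 to 80.6 CPM. The fall was 2.23-fold at 24 h (log2 −1.15, SE 0.19, edgeR FDR = 1.82e-05) and 2.65-fold at 72 h (log2 −1.40, SE 0.20, edgeR FDR = 7.33e-07). XX libraries with DMSO held 18.2 to 42.1 CPM at 24 h and 29.1 to 35.0 CPM at 72 h, which overlapped the MEKi libraries at both times, and this pair of groups was not tested. Against a 1.5-fold null the call at 72 h was kept by glmTreat and by voom with treat, and that at 24 h by glmTreat, whereas voom with treat gave −1.01 and an adjusted p of 1.0.

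With FGFRi at 72 h, *Irs2* stood at 63.9, 56.3, 53.0 and 67.5 CPM, inside the DMSO range. Its log2 difference from DMSO was −0.08 with a 95% interval from −0.44 to 0.27. MEKi and FGFRi were compared directly at 72 h, where *Irs2* was 2.50-fold lower with MEKi (log2 −1.32, SE 0.20, edgeR FDR = 2.48e-06) and the libraries did not overlap. The effect of MEKi on *Irs2* moved by −0.25 from 24 to 72 h, with a 95% interval from −0.80 to 0.30. The paralogue *Irs1* gave −0.16 with MEKi at 24 h (interval −0.53 to 0.20) and −0.07 at 72 h (interval −0.42 to 0.28).

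*Igfbp3* was lower with MEKi at 24 h. The MEKi libraries held 28.4, 43.8, 43.3 and 27.2 CPM, below all 24 h DMSO libraries at 81.3 to 133 CPM and overlapping the uncultured XY libraries at 33.0 to 44.4 CPM. The level was 2.87-fold lower than in DMSO (log2 −1.52, SE 0.19, edgeR FDR = 7.45e-08). The labels do not list MEKi library M2 of 24 h, which was placed by its name in the count table, and without it *Igfbp3* gave −1.43 and *Irs2* −1.15, both still called. At 72 h the MEKi libraries held 63.5, 45.1, 61.2 and 58.2 CPM and the DMSO libraries 88.3, 79.0, 92.3 and 65.2 CPM, without overlap. The log2 difference of −0.51 (SE 0.19, edgeR FDR = 0.0606) was not called, and was called without DMSO M6 (−0.60). The change of the MEKi effect between the times was 1.01 (SE 0.27, edgeR FDR = 0.038), and 1 member was called in this test, against 1.49% of all genes. That call was lost without any 1 of 9 libraries, 24 h DMSO M4 or M5, 24 h MEKi M1 or M2, 72 h DMSO M4 or M6 and 72 h MEKi M2, M4 or M5, with values of 0.86 to 1.00.

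Markers of other cells moved with MEKi as well. All 10 endothelial markers were called lower at 24 h, when their sum was 54.2 to 70.6 CPM with MEKi and 240 to 360 CPM with DMSO, and 7 of 10 at 72 h, when it was 106 to 123 and 127 to 200 CPM. With FGFRi at 72 h none of the 10 was called, at 106 to 168 CPM, and none was at 0 in every library of any group. Of 7 macrophage markers tested, 1 was called lower with MEKi at 24 h and 6 at 72 h (median log2 −1.81), and 6 with FGFRi at 72 h (median −2.40). Of 6 pericyte and smooth muscle markers, 3 were called lower with MEKi at 24 h, and 3 lower and 2 higher at 72 h, when their sum was 1021.9 to 1162.3 CPM with MEKi and 699 to 841 CPM with DMSO. Of 4 foetal Leydig markers, 1 was called lower at 24 h and 3 were called higher at 72 h, and of 5 germ cell genes 4 were called higher at 24 h and none at 72 h. Of 6 Sertoli markers, 1 was called higher with MEKi at 24 h, and 1 higher and 2 lower at 72 h. Against FGFRi at 72 h, 5 of the 6 were called lower with MEKi (median log2 −0.97). The part of these cells in the *Irs2* and *Igfbp3* results was not tested.

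No other member was called against DMSO. *Igf1r* stood at 190, 125, 134 and 172 CPM with MEKi at 72 h and at 240, 227, 202 and 227 CPM with DMSO, a log2 difference of −0.54 (SE 0.13, edgeR FDR = 0.00404) short of the fold limit, which it passed without MEKi M2 (−0.66) or M5 (−0.59). With FGFRi the difference was −0.41 (SE 0.13, edgeR FDR = 0.0723), and MEKi against FGFRi gave −0.13 with a 95% interval from −0.39 to 0.14. *Insr* was not called with either inhibitor. *Igf1* gave 0.37 with MEKi at 24 h (SE 0.12, edgeR FDR = 0.0581) and 0.25 at 72 h (SE 0.11, edgeR FDR = 0.132). *Igfbp5* stood above DMSO with MEKi at 24 h, at 1235.8, 1003.6, 1039.3 and 1197.6 CPM against 725 to 855 CPM in DMSO (log2 0.51, SE 0.11, edgeR FDR = 0.00257), under 1.5-fold.

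In the direct comparison at 72 h, 2 members were called, *Irs2* lower and *Igfbp2* higher with MEKi than with FGFRi, against 6.43% of all genes, 1.74% higher and 4.69% lower. *Igfbp2* libraries overlapped, at 53.9 to 92.9 CPM with MEKi and 33.6 to 62.8 CPM with FGFRi (log2 0.68, SE 0.18, edgeR FDR = 0.00718), and the call was lost without FGFRi M4 (0.54) or MEKi M2 (0.56). Against DMSO, *Igfbp2* gave 0.55 with MEKi (SE 0.17, edgeR FDR = 0.0323), and was called without DMSO M2 (0.65) or MEKi M5 (0.67). *Igfbp4* (log2 0.52, SE 0.10, edgeR FDR = 1.14e-04) and *Igf1* (log2 0.51, SE 0.11, edgeR FDR = 0.0013) passed the FDR without overlap of libraries, with higher values with MEKi, but below 1.5-fold. *Igf1* passed the fold limit without FGFRi M2 (0.60), and *Igfbp3* was called without FGFRi M4 (−0.61). For *Igf1*, FGFRi M5 stood at 369 CPM, the other 3 at 527 to 614 CPM and the MEKi libraries at 654 to 845 CPM.

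**Figure D3:**
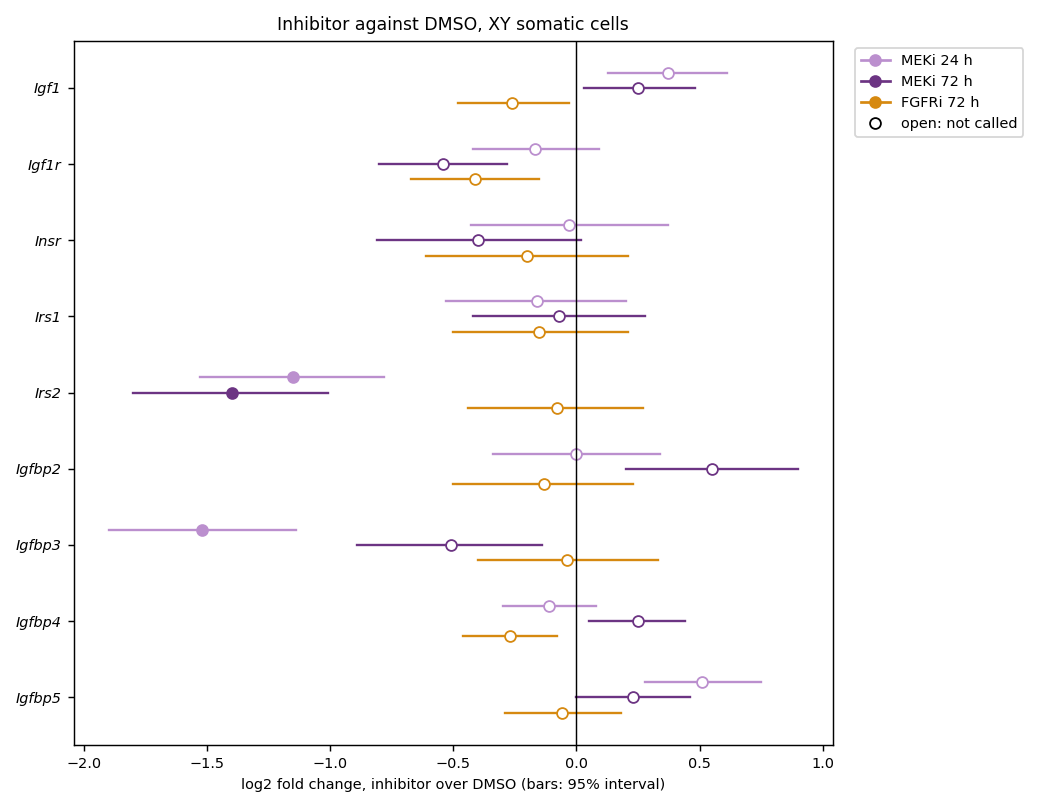
Log2 fold change of inhibitor over DMSO in XY somatic cells (horizontal axis) for each gene with MEKi at 24 and 72 h and FGFRi at 72 h, with 95% intervals from edgeR as bars and filled points for genes called. *Irs2* lay at −1.15 and −1.40 with MEKi and at −0.08 with FGFRi, and *Igfbp3* at −1.52, −0.51 and −0.04.

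FGFRi at 24 h was in the other pool from its DMSO control, so treatment and pool cannot be told apart. In that comparison *Irs2* alone was called and was lower, against 3.27% of all genes, 1.69% higher and 1.59% lower. *Irs2* held 54.1, 34.5, 41.0 and 44.6 CPM with FGFRi and 50.6 to 85.5 CPM with DMSO, with overlap (log2 −0.60, SE 0.18, edgeR FDR = 0.0361). The call was lost without any 1 of 5 libraries, DMSO M3 or M5 or FGFRi M3, M4 or M5 (−0.47 to −0.61), and under both tests against a 1.5-fold null. Over all genes, glmTreat called only 27 and voom with treat 16. *Igfbp3* stood at 108 to 139 CPM with FGFRi, a log2 difference of 0.26 from DMSO with a 95% interval from −0.08 to 0.61. *Igfbp5* (log2 0.39, SE 0.11, edgeR FDR = 0.0333) and *Igf1* (log2 0.39, SE 0.12, edgeR FDR = 0.0409) were higher with FGFRi than with DMSO. *Igfbp4* was lower (log2 −0.34, SE 0.09, edgeR FDR = 0.0233). Each of these was under 1.5-fold, without overlap of libraries.

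A wider list of 58 genes of the pathway, members included, had 49 genes that could be tested. *Pdk1* was on the list although its product acts on pyruvate use and not in the signalling cascade. Its calls, between the sexes at 24 h and with culture in XY and XX, are counted here. Between XX and XY, 13 of the 49 were called at 0 h (5 higher and 8 lower in XX), 17 at 24 h (4 and 13) and 13 at 72 h (5 and 8). These are 26.5%, 34.7% and 26.5% of the list, against 17.3%, 19.6% and 20.3% of all genes. The median log2 difference of the list was −0.09, −0.12 and −0.24, and that of all genes −0.01 each time. Culture for 24 h called 17 in XY (14 higher, 3 lower) and 11 in XX (8 and 3), with medians of 0.24 and 0.17 against 0.03 for all genes. These are 34.7% and 22.4% of the list, against 14.4% and 7.73% of all genes. The inhibitors called 4 with MEKi at 24 h (1 higher, 3 lower), 3 with MEKi at 72 h (1 and 2), 1 with FGFRi at 72 h (higher), 4 between MEKi and FGFRi (1 and 3) and 3 with FGFRi at 24 h (1 and 2). The shares of the list were 8.16%, 6.12%, 2.04%, 8.16% and 6.12%, in that order, against 3.27%, 6.47%, 1.8%, 6.43% and 3.27% of all genes, so that those with MEKi and with FGFRi at 72 h were near the share of all genes.

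Several genes for proteins that act on IGF outside the cell were called between the sexes, in both directions. *Igfbp7*, which encodes an IGF-binding protein-related secreted protein, was lower in XX by log2 values of −3.10 (SE 0.17, edgeR FDR = 1.31e-21) at 0 h, −3.23 (SE 0.14, edgeR FDR = 9.95e-26) at 24 h and −1.73 (SE 0.13, edgeR FDR = 2.4e-16) at 72 h. *Pappa*, the gene of the protease PAPP-A, was lower in XX at 24 h (log2 −1.47, SE 0.17, edgeR FDR = 1.69e-10) and 72 h (log2 −2.41, SE 0.17, edgeR FDR = 2.32e-17). *Stc1*, whose product inhibits PAPP-A, was lower in XX at all 3 times (log2 −2.30, −1.98 and −1.60). *Stc2*, the paralogue of *Stc1*, was lower in XX at 0 h (log2 −1.65) and higher at 24 h (0.77) and 72 h (0.91), and *Pappa2*, the gene of a related protease, was higher at 24 h (0.80) and 72 h (0.89). The PI3 kinase regulatory subunit gene *Pik3r3* was higher in XX at 0 h (log2 2.12, SE 0.28, edgeR FDR = 2.4e-08), 24 h (log2 1.54, SE 0.25, edgeR FDR = 2e-06) and 72 h (log2 2.21, SE 0.28, edgeR FDR = 9.71e-09). The values of *Stc2* and *Pappa2*, and those of *Pik3r3* at 24 and 72 h, were chosen after they were seen. *Grb14*, an inhibitor of receptor signalling, was lower at 0 h (log2 −1.49, SE 0.19, edgeR FDR = 1.2e-08). At 72 h *Grb10*, related to *Grb14* and imprinted, was lower in XX (log2 −1.04, SE 0.10, edgeR FDR = 6.9e-12), and at 24 h so was the transcription factor gene *Foxo1* (log2 −1.07, SE 0.16, edgeR FDR = 5.68e-07).

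Over the first 24 h of culture, *Igfbp7* (log2 1.22, SE 0.12), *Igfbp6* (2.11, SE 0.23) and *Pappa* (1.41, SE 0.17) rose in XY and *Pdk1*, an inhibitor of pyruvate entry into the citric acid cycle, fell (−1.31, SE 0.17). In XX, *Pappa2* (2.69, SE 0.29), *Igfbp7* (1.08, SE 0.18) and *Stc1* (1.13, SE 0.21) rose and *Pdk1* fell (−0.86, SE 0.16). With MEKi, *Pappa* was lower at 72 h (log2 −1.20, SE 0.15, edgeR FDR = 6.8e-08), also relative to FGFRi (−1.03, SE 0.15, edgeR FDR = 1.57e-06). *Grb14* was lower with MEKi only relative to FGFRi (−0.61, SE 0.17, edgeR FDR = 0.0122), and MEKi against DMSO gave 0.0 (SE 0.17) at 72 h. *Igfbp6* was higher with MEKi at 72 h (log2 0.71, SE 0.15, edgeR FDR = 0.0011). *Igfbp7* was lower at 24 h (log2 −0.60, SE 0.12, edgeR FDR = 5.94e-04), and *Foxo3*, a transcription factor inhibited by AKT, was higher (log2 0.73, SE 0.17, edgeR FDR = 0.00412). The mean *Igfbp7* level at 24 h was 296 CPM with DMSO, 195 CPM with MEKi and 191 CPM with FGFRi, the last in the other pool. *Grb14* was the only gene of the list called with FGFRi at 72 h (log2 0.61, SE 0.17, edgeR FDR = 0.0352).

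**Figure D4:**
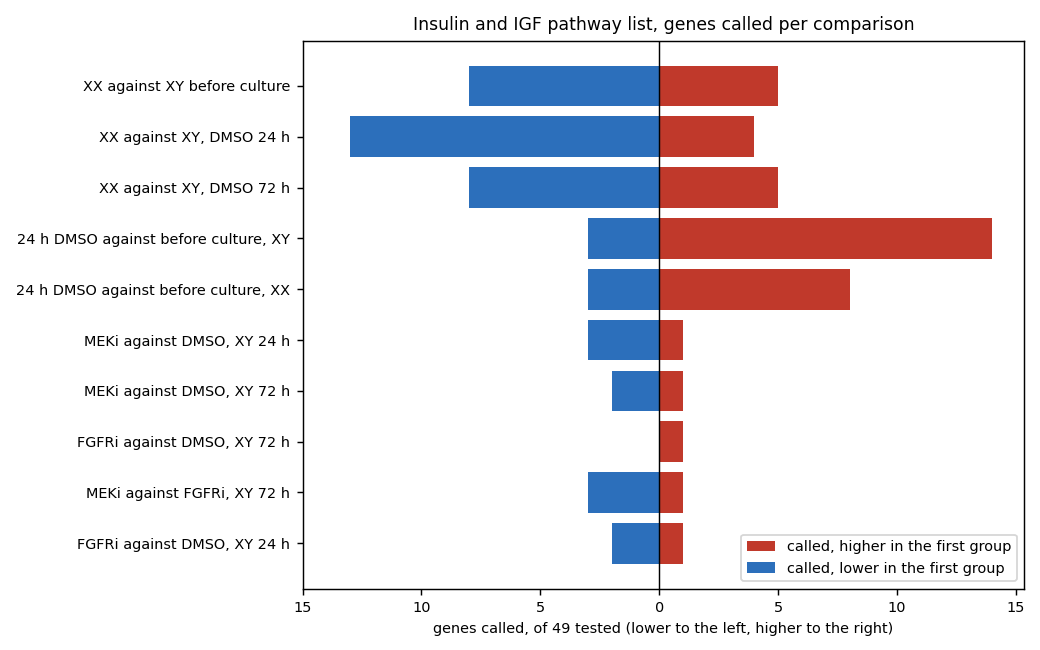
Number of genes called among the 49 tested genes of the pathway list (horizontal axis) in each of 10 comparisons, with genes lower in the first-named group to the left and higher to the right. Culture of XY gonads called 14 higher and 3 lower, and FGFRi at 72 h called 1.

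Genes with the most similar pattern were found by Pearson correlation of log2 CPM over the 10 group means, among 12981 genes with a mean of at least 5 CPM. The groups share pools and controls, so these values are descriptions. The closest to *Igf1* were *Ecel1* (r = 0.981) and the binding protein gene *Igfbp6* (0.975), and to *Irs1* the fibrillar collagen genes *Col3a1* (0.981) and *Col1a2* (0.973). *Irs2* was closest to *Spry1*, which encodes a feedback inhibitor of receptor tyrosine kinase signalling (0.938), and *Alkbh1* (0.935). *Igf1r* was closest to *Gna13* (0.966) and *Dock6* (0.950), and *Insr* to *Mme* (0.966) and *Kifbp* (0.958). For the binding proteins, the closest were *Pde7a* (0.930) to *Igfbp2*, *Alg10* (0.928) and *Morc2a* (0.918) to *Igfbp3*, *Nsa2* (0.917) and *Rab26os* (0.910) to *Igfbp4*, and *Zfp28* (0.945) and *Cabin1* (0.928) to *Igfbp5*.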

How the data were processed

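RNA was read as 3′-end tags with molecular identifiers. With scPipe and Rsubread, the authors mapped reads on GRCm39 and GENCODE genes, counted each molecule once per gene with regard to strand, and added 2 sequencing lanes. These steps are described for the germ cells of the study and were taken to hold for the somatic libraries. Tool versions for these steps are not given in the sources used here. The authors deposited raw counts for 40 somatic libraries in 10 groups of 4, and the labels name 39 of them. The fortieth, XY MEKi 24 h M2, carries its group in its column name.

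Counts were fitted over all 40 libraries with edgeR 4.0.16 in R 4.3.3 (TMM, filterByExpr, glmQLFit, glmQLFTest), which left 15125 genes. Genes were called at an FDR below 0.05 and 1.5-fold, and changes of a difference at the FDR alone. Standard errors and 95% intervals come from the same fit. Whether libraries of a group came from separate litters is not stated, so p-values measure the spread between these pooled samples, which may be partly technical. The code was tested on simulated counts. Alternatives were RLE and total-count scaling, other filters, DESeq2 1.42.0, glmTreat, voom with quality weights (limma 3.58.1), fits of fewer groups, a replicate block and each library left out. Members and lists were chosen with earlier results of these data known. The text names the 9 members in every comparison, up to 4 further pathway genes called per comparison by FDR, and the 2 genes most like each member, of which 1 is not reported here.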

Additional observations from a re-analysis of the deposited data

Results flagged for a closer look

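In 90 groups of 4 libraries (9 genes in 10 groups), 5 had a library far from the other 3 by Dixon's ratio, where chance alone gives about 1 in 20. XY M5 at 0 h was high for *Igf1r*, at 216 CPM with the others at 171 to 176, and for *Irs1*, at 38.7 CPM with the others at 21.5 to 23.0. XY FGFRi M6 at 72 h was low for *Insr*, at 20.1 CPM with the others at 27.5 to 28.2. XX F4 at 0 h was low for *Igfbp2*, at 172 CPM with the others at 206 to 208. XY DMSO M5 at 24 h was high for *Igfbp4*, at 538 CPM with the others at 448 to 452.

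Of 27 tests of a changed difference (9 genes, 3 tests), 6 passed the edgeR FDR. The XX–XY difference changed from 0 to 24 h by −1.28 for *Igf1*, −1.65 for *Igfbp2*, −1.02 for *Igfbp3* and −1.01 for *Igfbp4* on the log2 scale, and from 24 to 72 h by −1.07 for *Igf1*. The MEKi effect on *Igfbp3* changed by 1.01 from 24 to 72 h.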

How the results depend on the processing

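Tests against a 1.5-fold null gave fewer calls. glmTreat called 2 members between XX and XY at 24 h and 2 at 72 h (4 each in the report), 2 with culture in XY (from 4), 1 with culture in XX (from 3), 1 between MEKi and FGFRi (from 2) and 0 with FGFRi at 24 h (from 1). Voom with quality weights and treat called 2, 1 and 0 between the sexes at 0, 24 and 72 h, 2 and 0 with culture in XY and XX, 1 with MEKi at 24 h, 1 between MEKi and FGFRi and 0 with FGFRi at 24 h. Over all genes glmTreat called 1388, 1582 and 1490 and voom 936, 1156 and 1087 between the sexes (2622, 2961 and 3067 in the report), and 5 and 0 with FGFRi at 72 h (273). With culture glmTreat called 688 and voom 421 in XY (from 2178), and 356 and 214 in XX (from 1169). They called 157 and 88 with MEKi at 24 h (from 495) and 208 and 90 between MEKi and FGFRi (from 972). With FGFRi at 24 h they called 27 and 16 (from 495). Calls thus fell over all genes as well as among the members. Without a filter on low counts, the change of the XX–XY difference from 24 to 72 h called 2 members. The 180 group levels moved by less than the spread between replicates under both other scalings.

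The replicate numbers were not treated as pairs, since no comparison had correlations of same-numbered libraries all over 0.1 (−0.205 to 0.132). For FGFRi against DMSO at 72 h all were positive, at 0.008 to 0.132. Such correlations cannot show that the libraries were unpaired. With the replicate block, the change of the MEKi effect called 0 members, *Igfbp3* giving 0.95 (edgeR FDR = 0.0945), and culture in XY called 3.

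With 1 library left out, counts ran from 1 to 3 for MEKi at 72 h, 1 to 3 for MEKi against FGFRi, 0 to 1 for FGFRi at 24 h and 0 to 1 for the change of the MEKi effect. The libraries behind these are named in the report.

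Values near 0 changed sign and none of them was called. With a library left out, *Insr* ran from −0.15 to 0.09 and *Igfbp2* from −0.10 to 0.13 with MEKi at 24 h, and *Irs1* from −0.12 to 0.04 with MEKi at 72 h. With FGFRi at 72 h, *Irs2* ran from −0.16 to 0.07, *Igfbp2* from −0.27 to 0.01, *Igfbp3* from −0.19 to 0.10 and *Igfbp5* from −0.15 to 0.02. With FGFRi at 24 h, *Igf1r* ran from −0.13 to 0.07 and *Insr* from −0.10 to 0.14. For the change of the XX–XY difference from 0 to 24 h, *Igf1r* ran from −0.07 to 0.13, *Irs1* from −0.43 to 0.02 and *Irs2* from −0.27 to 0.14. From 24 to 72 h, *Insr* ran from −0.19 to 0.09 and *Irs2* from −0.08 to 0.33, and *Irs1* ran from −0.06 to 0.26 for the change of the MEKi effect. With the replicate block *Insr* gave 0.16 with MEKi at 24 h, and *Igfbp2* gave 0.00 with RLE scaling and with DESeq2. Total-count scaling gave −0.04 for *Insr* with FGFRi at 24 h and −0.07 for the change of *Igf1r* from 0 to 24 h, which was −0.01 without a filter and −0.01 where 4 libraries had to reach 1 CPM, and *Insr* gave 0.00 under that last filter. Voom gave 0.08 and −0.06 for the changes of *Irs2*.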
